A study of Mus musculus with 9 samples.

Results

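The genes described here encode the proteasome. They are the rows of the count table whose symbol starts with Psm, then a letter from a to g and a digit, without the immune subunits Psmb8 and Psmb9. The rule finds 48 of 17769 genes. It used no measured value. Of the 48, 47 passed the filter on low counts and were tested among 13608 genes. The exception is Psmb11, the catalytic subunit of the thymus form, which had 1 count in WT 50, 1 in WT 51 and 0 in the other 7 libraries. Psmc3ip also meets the rule, although it encodes a recombination factor and no proteasome subunit, and it is kept in all counts. Psme2b is a near copy of Psme2, with 1.89 to 2.29 times the count of Psme2 in every library. How reads were divided between Psme2 and Psme2b is not given in the sources used here, so the values of both are uncertain.

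The RNA came from bone marrow cells of C57BL/6N mice sorted by flow cytometry as MEP, the megakaryocyte-erythroid progenitors that give rise to platelets and red cells. VF mice carried SclCre with the V617F allele of Jak2, and their cells were taken 12 weeks after tamoxifen. E12 mice carried SclCre with the Exon12 allele, and their cells were taken after 6 weeks, which sets E12 apart in time as well as in allele. The WT cells were taken at 12 weeks, and their label names no SclCre. By the protocol all groups received 5 daily tamoxifen injections. SclCre is a tamoxifen-dependent recombinase driven in blood stem and progenitor cells, so the alleles are induced in the adult animal. Each group has 3 libraries, named by their label numbers (VF 1, 2 and 3, E12 1, 2 and 5, WT 50, 51 and 52). Whether these come from separate mice is not stated in the labels, and if they do not, the p-values cover only a spread between libraries that may be technical.

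The proteasome breaks down proteins tagged with ubiquitin. Its barrel, the 20S core, is built from outer rings of alpha subunits, which gate the entrance, and inner rings of beta subunits, of which Psmb5, Psmb6 and Psmb7 cut peptide bonds. The 19S cap sits on the barrel. Its base holds a ring of ATPases that unfold substrates, and its lid removes ubiquitin. Other caps, the activators Psme1 to Psme4, open the gate without needing ubiquitin. Dedicated chaperones assemble both parts and then leave. Red cell precursors depend on protein breakdown by this machinery while they remodel into red cells.

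The libraries differ in ways that bear on every comparison with WT. Total counts ran from 19256431 to 23499914 in the 6 mutant libraries and from 33838681 to 39736096 in WT. Genes shorter than 1 kb, by the length the authors give, took 27.9% of the counts in WT 50, 14.1% in WT 51 and 11.2% in WT 52, whereas the mutant libraries gave them 6.92% to 8.97%. Genes at 0 made up 27.2% to 30.1% of the table in WT and 10.7% to 18.7% in the mutants. By the sample numbers of the sequencing facility, the WT libraries belong to a separate series from the mutants, and the effect of that series cannot be told apart from that of genotype in a comparison with WT. All 6 markers that define MEP (Gata1, Klf1, Kit, Epor, Itga2b and Tfrc) had counts in every library, but their levels differed between the groups. Itga2b, the megakaryocyte integrin, had 516 to 582 CPM in VF, 107 to 138 in E12 and 0.276, 10.7 and 11.3 in WT. Klf1, a regulator of red cell genes, had 70.9 to 163 CPM in VF, 630 to 836 in E12 and 1690 to 3410 in WT. Tfrc, the transferrin receptor, had 73.8 to 77.6 CPM in VF, 798 to 1620 in E12 and 89.6 to 145 in WT.

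Proteasome genes are mostly short, so members are also set beside genes of similar length, and fits with an offset for length are given. Other levels, shares and fold changes are not adjusted for length unless this is stated. Levels below are CPM, the count of a gene relative to the library size after scaling with TMM factors. A log2 fold change (log2 change for short) of -1 is a halving of the level. The offset for length also moved the median log2 change of all tested genes. Against WT that median went from 0.36 to -0.76 in VF and from 0.36 to -0.58 in E12. In E12 against VF it went from -0.05 to 0.16. Values with the offset are to be read beside these medians. Genes were called at an adjusted p under 0.05 in edgeR's quasi-likelihood test of all 9 libraries, with Benjamini-Hochberg adjustment over all tested genes. This test gives every adjusted p below unless another is named.

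Per kb of length, the same genes stood at the top and bottom of the proteasome in all 3 groups. Psmb2, a structural beta subunit, was the highest, with 466 ± 18.1 CPM per kb in VF (SD, n = 3), 564 ± 77.1 in E12 and 3640 ± 3450 in WT. Psmb6, the subunit with caspase-like activity, ranked second in all 3 groups, with 417 ± 22.6 in VF, 368 ± 57.9 in E12 and 3180 ± 2850 CPM per kb in WT. Psmb2 lay above Psmb6 in every library, in WT with 7620, 1820 and 1490 against 6460, 1690 and 1380 CPM per kb. At the other end stood Psma8, the alpha subunit of the testis form, with 6.90 ± 0.854 CPM per kb in VF, 4.18 ± 1.02 in E12 and 5.76 ± 2.04 in WT. Psme4, an activator known for its part in chromatin and spermatogenesis, was as low, with 7.21 ± 1.01, 8.46 ± 0.776 and 5.08 ± 0.928 CPM per kb. The wide spread in WT comes with WT 50. All 48 genes together took 3.22% of the counts in WT 50, 2.41% in WT 51 and 2.13% in WT 52, while they took 1.04% to 1.08% in VF and 1.22% to 1.38% in E12. These shares, which are not adjusted for length, put the groups in the order VF, E12, WT with no overlap.

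**Figure D1:**
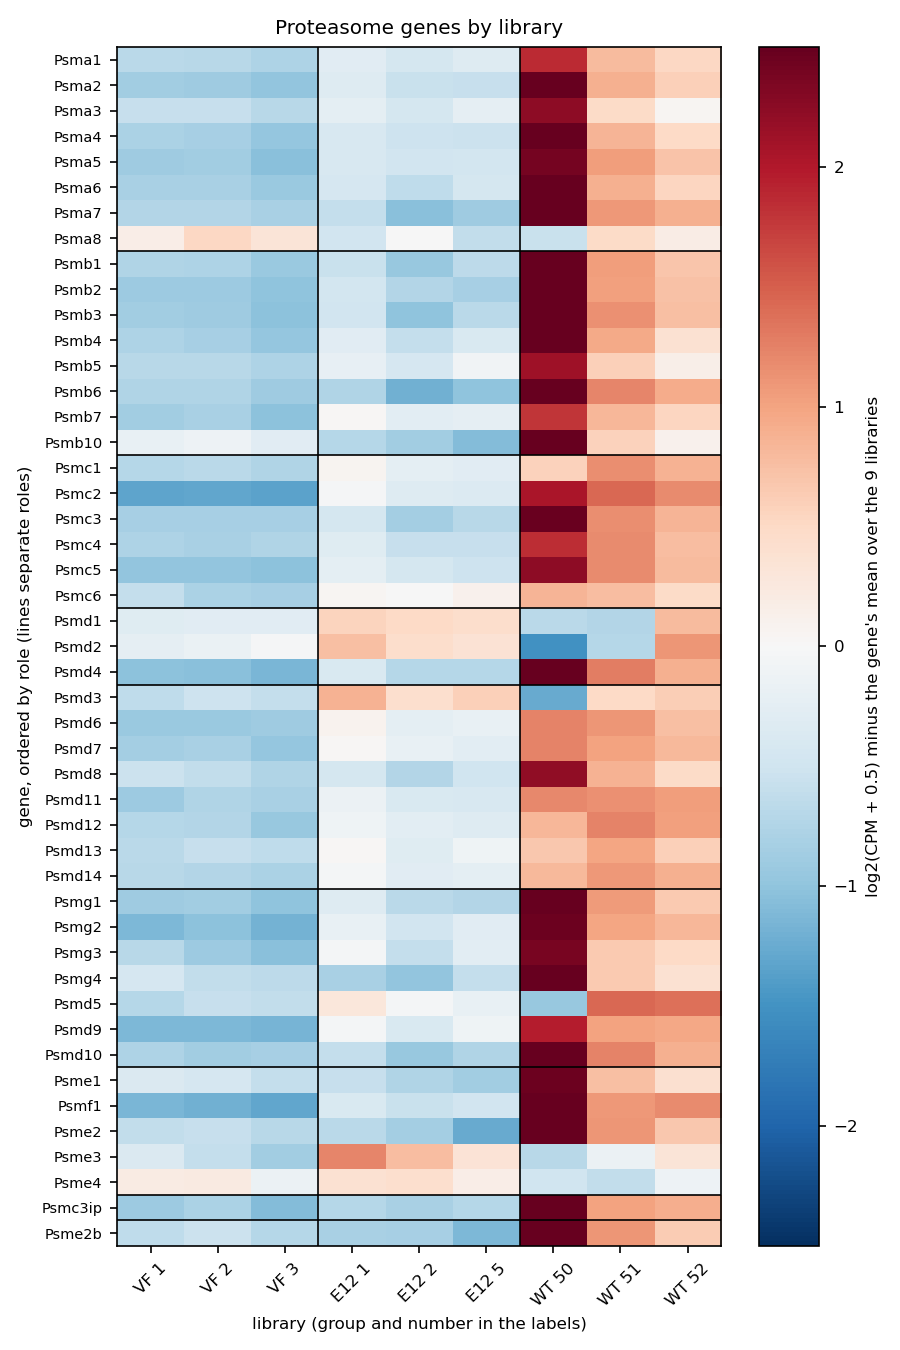
Level of each of the 47 tested proteasome genes (rows, ordered by role) in each of the 9 libraries (columns), as log2(CPM + 0.5) minus the gene's mean over the libraries, with colours ending at 2.5 in either direction. Most rows are lowest in VF, intermediate in E12 and highest in WT, with WT 50 beyond the other WT libraries, while others, such as Psma8, Psmb10, Psmd1, Psmd2, Psmd3, Psme3 and Psme4, depart from this.

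The promoters of 4 members that the results turn on are printed here. Psmb6, Psme1 and Psmc2 were lower than WT in both mutants, Psmc2 the more so in VF, while Psme3 was highest in E12. The sequences are RefSeq windows on GRCm38.p6 from 250 bases before to 50 bases after the start site, 5′ to 3′, and they were found for 40 of the 48 members. Psmc2 has 2 such windows, and the printed one was picked by its number of matches to the motifs named for it. Capitals mark only the letters named for each gene after the sequences, and matches to the other motifs searched are left in lower case.

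Psmb6, chr11:70525107-70525406, plus strand: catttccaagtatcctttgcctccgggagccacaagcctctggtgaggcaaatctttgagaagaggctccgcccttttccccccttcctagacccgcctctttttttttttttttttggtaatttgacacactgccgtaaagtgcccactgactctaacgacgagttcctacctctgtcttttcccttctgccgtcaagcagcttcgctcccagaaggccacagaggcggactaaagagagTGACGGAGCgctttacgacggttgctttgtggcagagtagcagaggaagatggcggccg

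Psmc2, chr5:21785025-21785324, plus strand: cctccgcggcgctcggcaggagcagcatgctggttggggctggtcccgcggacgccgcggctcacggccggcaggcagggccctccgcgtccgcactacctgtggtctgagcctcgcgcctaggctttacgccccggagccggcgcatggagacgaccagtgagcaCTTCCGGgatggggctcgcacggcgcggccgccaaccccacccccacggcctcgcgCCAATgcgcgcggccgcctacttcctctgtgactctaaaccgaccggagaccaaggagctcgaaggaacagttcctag

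Psme1, chr14:55578244-55578543, plus strand: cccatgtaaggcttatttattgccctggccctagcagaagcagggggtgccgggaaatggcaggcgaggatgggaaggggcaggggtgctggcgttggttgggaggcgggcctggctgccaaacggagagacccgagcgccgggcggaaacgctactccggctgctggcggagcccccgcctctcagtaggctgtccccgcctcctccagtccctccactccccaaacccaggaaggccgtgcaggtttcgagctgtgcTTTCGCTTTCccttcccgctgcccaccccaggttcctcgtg

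Psme3, chr11:101315963-101316262, plus strand: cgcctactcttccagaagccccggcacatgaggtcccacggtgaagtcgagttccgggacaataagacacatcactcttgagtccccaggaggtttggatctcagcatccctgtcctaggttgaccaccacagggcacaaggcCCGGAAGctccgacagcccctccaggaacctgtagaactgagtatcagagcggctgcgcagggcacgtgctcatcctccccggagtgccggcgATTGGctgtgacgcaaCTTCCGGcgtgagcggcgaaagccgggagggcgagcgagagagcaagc

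In Psmb6 the capitals mark TGACNNNGC, the core of the antioxidant response element to which the proteasome regulator Nfe2l1 binds. In Psmc2 they mark CCGGAAG, an ETS core, on the opposite strand, and CCAAT. In Psme1 they mark the core of the interferon-stimulated response element (GAAA, any 2 bases, GAAA) on the opposite strand. In Psme3 they mark the ETS core on each strand and CCAAT on the opposite strand. A search of both strands with 11 motifs was run, and these 4 were chosen for print after the counts were seen. The ETS core was present in 15 of the 40 member promoters (37.5%), in 19.7% of the promoters of tested genes and in 9.93% of all promoters in the RefSeq table. A shifted ETS core, ACTTCCG, which overlaps the first, was in 35.0%, 14.6% and 7.20%. The interferon core was in 5 of 40 (12.5%), against 3.84% and 3.99%. TGACNNNGC was in 6 of 40 (15%), against 16.8% and 14%, and CCAAT in 14 (35.0%), against 43.2% and 41.1%. Of the other letters, CCATNTT (YY1) was in 25% against 17.6% of tested genes, CACGTG (E-box) in 4 of 40 against 11.7%, TTCNNNGAA (STAT) in 2 of 40 against 8.40% and TGAGTCA (AP-1) in 1 of 40 against 4.55%. TGACTCAGC (NF-E2) and the ZNF143 core were in 0 of 40, against 0.523% and 0.598% of tested genes. These matches describe letters in a window and are no evidence of binding.

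VF was compared with WT, both at 12 weeks. Proteasome genes were lower in VF in nearly every role: 41 of 47 fell and 0 rose. Among all tested genes 20.9% fell and 27.7% rose. The median log2 fold change was -2.33 over the members and 0.36 over all tested genes. By role, 7 of 8 alpha subunits fell (median -2.5), as did 8 of 8 tested beta subunits (-2.56), 6 of 6 ATPases of the base (-2.31), 7 of 8 lid subunits (-1.88) and 7 of 7 assembly chaperones (-2.53). Only 1 of 3 non-ATPase base subunits fell, the ubiquitin receptor Psmd4 with -3.00, and 3 of 5 of the other caps and the inhibitor. The 6 members without a call were Psma8, Psmd1, Psmd2, Psmd3, Psme3 and Psme4. In the fit of VF and WT alone, 38 members fell and 0 rose, against 16.0% and 21.4% of all tested genes. The chaperone Psmd5 overlapped between the groups and lost its call in that fit (adjusted p 0.085).

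The lowest p belonged to Psmc2, an ATPase of the base. Its level was 154, 156 and 152 CPM in VF and 1580, 1040 and 867 CPM in WT. The groups are far apart, with a log2 fold change of -2.92 (SE 0.31), or 7.57-fold lower, and an adjusted p of 0.00031. Psmd11, a lid subunit that helps join lid and base, had 171, 192 and 183 CPM in VF and 745, 709 and 666 in WT. It is one of the few members with tight WT values, and it fell by 1.96 on the log2 scale (SE 0.23, adjusted p 0.00043). Psmd6, another lid subunit, had 157, 156 and 160 CPM in VF and 702, 642 and 502 in WT, a log2 change of -1.96 (SE 0.24, adjusted p 0.00056).

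The catalytic beta subunits fell as well, with a wider spread in WT. Psmb5, whose chymotrypsin-like site is the main target of bortezomib, had 126, 127 and 120 CPM in VF and 898, 309 and 226 in WT, a log2 change of -1.94 (SE 0.48, adjusted p 0.0093). Psmb6 had 446, 444 and 405 CPM in VF and 6690, 1750 and 1430 in WT, a log2 change of -2.93 (SE 0.58, adjusted p 0.0039). Psmb7, which cuts after basic residues, had 120, 125 and 107 CPM in VF and 760, 388 and 316 in WT, a log2 change of -2.06 (SE 0.35, adjusted p 0.0019). In each of the 3 genes the groups do not overlap and WT 50 is the highest library. Without WT 50, Psmb5 was at -1.25 and Psmb6 at -2.02. Psmb10 takes the place of Psmb7 in the immune form of the core. It had 157, 162 and 146 CPM in VF and 1070, 264 and 192 in WT. Its log2 change of -1.72 (SE 0.58, adjusted p 0.034) lost its call when only the VF and WT libraries were fitted (adjusted p 0.090). It also lost it without any 1 VF library (adjusted p 0.089 to 0.10) or any 1 E12 library (0.052 to 0.055). Without WT 50 it was -0.70 (adjusted p 0.014), and on the deposited levels -0.16 (adjusted p 0.65). Leaving out another WT library widened the differences: Psmb6 was at -3.52 without WT 51 and -3.60 without WT 52, Psmb10 at -2.32 and -2.42, and Psmb5 at -2.59 without WT 52.

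Among the regulators, the largest change of any member was that of Psmf1, an inhibitor of the core in the test tube. It had 83.6, 80.7 and 75.2 CPM in VF and 1290, 396 and 424 in WT, 8.82-fold lower in VF with a log2 change of -3.14 (SE 0.47, adjusted p 0.0011). Psme1, which with Psme2 forms the interferon-induced activator ring, had 193, 185 and 165 CPM in VF and 1360, 417 and 329 in WT, a log2 change of -1.95 (SE 0.50, adjusted p 0.011). Psme2 had 84.8, 87.1 and 80.2 CPM in VF and 983, 281 and 209 in WT, a log2 change of -2.55 (SE 0.55, adjusted p 0.0055). None of these groups overlap. Psmc3ip, which is no proteasome gene, had a log2 change of -3.00 (SE 0.57, adjusted p 0.0033). Without WT 50 these log2 changes were smaller, with -2.49 for Psmf1, -1.18 for Psme1, -1.69 for Psme2 and -2.03 for Psmc3ip, and Psmd4 was at -2.31. Without WT 52, Psme1 was at -2.60, Psme2 at -3.22 and Psmc3ip at -3.67, and Psmc3ip was at -3.62 without WT 51. Of the 41 members called, 22 came closer to WT by over 1.5 times in fold without WT 50. The activators Psme3 and Psme4 did not pass the test, with log2 fold changes of -0.48 (SE 0.33, adjusted p 0.26) and 0.51 (SE 0.23, adjusted p 0.094).

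Short genes as a whole were lower in VF than in WT, so each member was set beside all other tested genes whose length is within 10% of its own. In counts, 46 of 47 members lay below the median of their length neighbours, Psma8 being the exception, and the median difference was -0.95 on the log2 scale. Among genes shorter than 1 kb, 12 of 12 members and 51% of the other genes fell, with medians of -2.51 and -1.76. From 1.5 to 2 kb, 10 of 11 members and 34.0% of the others fell, with medians of -1.91 and -0.47. Psmf1, at 3559 bases among the longest members, lay 3.98 below its neighbours (log2), which had a median of 0.84. In WT 50, however, Psmf1 stood at 3.15 times the mean of WT 51 and WT 52. All tested genes of 2 kb and over had a median of 0.731 there. The gap rests on the authors' length, and whether that length holds for the transcript counted was not tested. Psme1 lay only 0.19 below and Psmb5 only 0.24 below theirs.

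On the log2 levels that the authors deposited, whose distribution is nearly equal in all libraries, the placing beside length neighbours was not seen: 23 of 47 members lay below the neighbours' median, with a median difference of 0.02. On those levels limma called 31 members lower and 0 higher, against 24.3% and 25.5% of all tested genes. With a fitted offset for length per library, which also moved the median of all genes to -0.76, 46 members fell, against 42.2% of all tested genes, with a member median of -1.82. Without WT 50, 43 members fell, against 27.1%, and 45 lay below their neighbours.

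**Figure D2:**
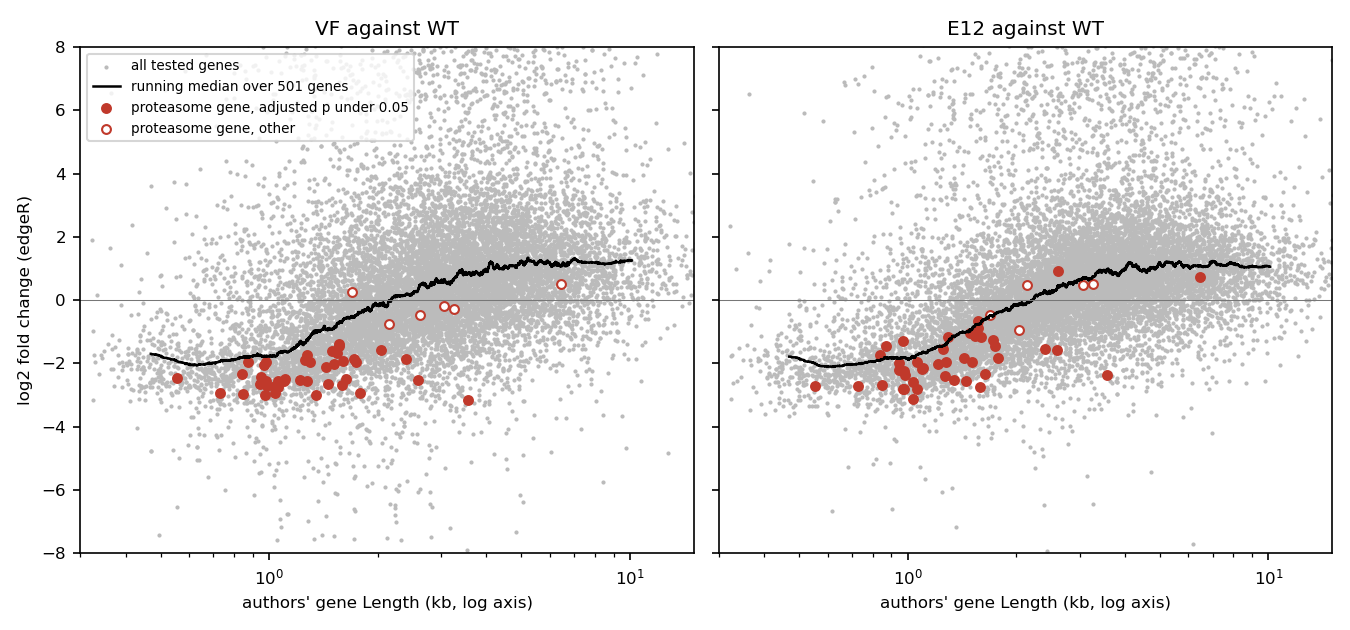
Log2 fold change against WT (vertical axis) by the authors' gene length in kb (horizontal log axis) for VF and E12, with all tested genes in grey, their running median as a line, and proteasome genes in red, filled where the adjusted p is under 0.05. Short genes lie low in both panels, and 46 of 47 members in VF and 39 of 47 in E12 lie below the median of genes of similar length.

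E12 was then compared with the same WT libraries, which both comparisons therefore share. Here 40 members fell and 2 rose, against 18.1% and 23.9% of all tested genes, and 40 members were called lower in both comparisons with WT. The median log2 fold change was -1.94 over the members and 0.36 over all tested genes. All 8 tested beta subunits fell (median -2.5), as did 7 of 8 alpha subunits (-2.08), 6 of 6 ATPases (-1.83), 7 of 8 lid subunits (-1.16) and 6 of 7 chaperones (-1.94). The 2 that rose are the activators Psme3 and Psme4.

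The smallest p belonged to Psmd11, with 290, 248 and 245 CPM in E12, a log2 change of -1.44 (SE 0.22, adjusted p 0.0025). Psmc2 had 376, 305 and 301 CPM in E12, between its VF and its WT values, and a log2 change of -1.83 (SE 0.29, adjusted p 0.0028). Psmd10, a base chaperone also known as gankyrin, had 93.5, 72.5 and 83.1 CPM in E12 and 881, 333 and 262 in WT, a log2 change of -2.57 (SE 0.44, adjusted p 0.0036). None of the 3 overlapped with WT. Psmd10 was at -3.18 without WT 52.

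The catalytic subunits fell to different degrees. Psmb6 had 445, 327 and 372 CPM in E12, 8.63-fold lower than WT (log2 fold change -3.11, SE 0.59, adjusted p 0.0049). Psmb5 had 179, 153 and 194 CPM, with a log2 change of -1.45 (SE 0.47, adjusted p 0.035). Psmb7 had 223, 182 and 188 CPM, with a log2 change of -1.30 (SE 0.34, adjusted p 0.015). Beside genes of their length, Psmb5 and Psmb7 were not low: their log2 fold changes lay 0.39 and 0.50 above the neighbours' median, while Psmb6 lay 1.35 below. Psmb5 and Psmb7 lost their calls when only the E12 and WT libraries were fitted, with adjusted p of 0.096 and 0.064. With the length offset, where all tested genes had a median of -0.58, they were at -0.29 (adjusted p 0.13) and -0.41 (adjusted p 0.097). On the deposited levels they were at -0.27 (adjusted p 0.32) and -0.29 (adjusted p 0.13). Psmb5 also lost its call without any 1 VF library (adjusted p 0.058) or any 1 E12 library (0.081 to 0.11), and Psmb7 without E12 2 (0.061) or E12 5 (0.055). Without WT 50, Psmb5 was at -0.75 (adjusted p 0.012) and Psmb6 at -2.20. Without WT 52 they were at -2.09 and -3.78, and Psmb6 was at -3.70 without WT 51.

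Psmb10 had 109, 97.3 and 83.3 CPM in E12, a log2 change of -2.40 (SE 0.59, adjusted p 0.012). Psme1 had 166, 147 and 137 CPM, with -2.23 (SE 0.51, adjusted p 0.0088), and Psme2 had 81.9, 72.1 and 54.4 CPM, with -2.82 (SE 0.56, adjusted p 0.0055). Psmf1 had 144, 127 and 134 CPM, with -2.38 (SE 0.45, adjusted p 0.0051). These 4 genes share the direction they had in VF. Psmc3ip had a log2 change of -2.82 (SE 0.57, adjusted p 0.0060). Without WT 50, Psmb10 was at -1.39, Psme1 at -1.46, Psme2 at -1.96, Psmf1 at -1.73 and Psmc3ip at -1.84. Without WT 52, Psmb10 was at -3.11, Psme1 at -2.88, Psme2 at -3.50 and Psmc3ip at -3.49, and without WT 51 Psmb10 was at -3.01 and Psmc3ip at -3.44. Of the 42 members called, 21 came closer to WT by over 1.5 times in fold without WT 50.

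Psme3 encodes the activator of the nucleus, which helps degrade some cell cycle regulators without ubiquitin. It had 283, 207 and 155 CPM in E12, 94.6, 80.6 and 66.4 in VF and 74.7, 110 and 152 in WT. E12 lies above both other groups, though E12 5 exceeds WT 52 by little. Against WT its log2 fold change was 0.94 (SE 0.33, adjusted p 0.047). Psme4 had 56.7, 58.0 and 48.8 CPM in E12 and 30.7, 28.0 and 39.4 in WT, a log2 change of 0.74 (SE 0.23, adjusted p 0.029). Beside genes of similar length, Psme4 lay 0.36 below their median of 1.09, and 43.1% of them were called higher. Psme3 lay 0.56 above its neighbours' median of 0.38, with 17.9% of them called higher. Both lost their calls in the fit of E12 and WT alone, with adjusted p of 0.12 and 0.10. With the length offset Psme3 was at 0.02, and Psme4, the longest member, turned to -0.91 (adjusted p 0.0078) against WT in E12 and to -1.46 (adjusted p 0.00044) in VF.

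Of the 47 members, 39 lay below the median of their length neighbours in E12, with a median difference of -0.54. On the deposited log2 levels the placing was again not seen: 17 of 47 lay below, with a median difference of 0.23. Limma on those levels called 28 members lower and 4 higher, against 20.5% and 21.1% of all tested genes. In the fit of E12 and WT alone, 29 members fell and 0 rose, against 9.49% and 12.1%. With the length offset, 40 fell and 0 rose, against 33.1% and 9.58%, and all tested genes had a median of -0.58.

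WT 50 differed from the other WT libraries along the same axis of length. Its level over the mean of WT 51 and WT 52 had a median of 3.79 over the 12 members shorter than 1 kb, 2.96 over the 15 from 1 to 1.5 kb, 1.16 over the 11 from 1.5 to 2 kb and 0.571 over the 9 longer ones. Over all tested genes in the same bins the medians were 3.84, 2.43, 0.979 and 0.731. The medians of the members thus followed the general trend of WT 50. Single members did not always do so: the 9 longer ones ran from 0.195 (Psmd5) to 3.84 (Psma3). The median core subunit stood at 5.79 times the median cap subunit per kb in WT 50, but at 1.64 and 1.55 times in WT 51 and WT 52. This ratio was 1.76 to 1.92 in VF and 1.28 to 1.5 in E12, so E12 lay below VF without overlap.

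E12 and VF were compared last, because their libraries are closer to each other than to WT in depth, in counts by gene length and in facility numbers. In the test with all 9 libraries, 0 members were called in either direction, against 2.19% of all tested genes higher and 1.02% lower. At an unadjusted p under 0.05 there were 11, each higher in E12, against 9.27% of all tested genes higher and 8.48% lower. DESeq2 called 8 higher, against 6.32% of genes, and limma-voom 2, against 3.02%, with 0 lower by either tool, against 6.14% and 3.77%. That test shares 1 estimate of the spread per gene with the WT libraries, where most members vary most. In an edgeR fit of the 6 E12 and VF libraries alone, 32 members were higher in E12 and 2 were lower, against 25% and 22.2% of all tested genes. The median log2 fold change in this fit was 0.48 over the members and -0.01 over all tested genes. Leaving out any 1 of the 6 libraries from it gave 30 to 32 higher and 1 or 2 lower, against 19.6% to 24.8% and 16% to 25.3% of all tested genes.

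Between E12 and VF the median of genes that are no members lay between -0.08 and -0.01 in every length class. In the test of all 9 libraries, 39 of 47 members lay above the median of their length neighbours, with a median difference of 0.49, and on the deposited levels 34 of 47 lay above, with 0.28. The values of 32 members did not overlap between the groups with E12 higher, against 28.2% of all tested genes, and those of 3 did not overlap with E12 lower (Psma8, Psmb10 and Psme2b), against 31.3%. With the length offset in the test of all 9 libraries, 16 members were higher and 0 lower, against 8.63% and 1.97%. The offset raised the median of all tested genes from -0.05 to 0.16. Without WT 50, 18 were higher and 1 lower, against 12.8% and 10.7%. Without WT 52, 5 were higher, against 5.11%, and without WT 51 there was 1, against 2.83%. The 16 and the 18 are all among the 32. On the deposited levels limma called 7 higher and 1 lower, against 7.15% and 5.96%, and the 7 are among the 32.

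By role, in the fit of the 6 libraries, the 3 non-ATPase base subunits were all higher in E12 (median 0.70), as were 5 of 6 ATPases (0.62), 7 of 8 lid subunits (0.59) and 5 of 7 chaperones (0.62). In the core, 6 of 8 alpha subunits were higher and 1 lower (median 0.39), and 4 of 8 beta subunits higher and 1 lower (0.28). Among the other caps and the inhibitor, 2 of 5 were higher (0.26). Whether the roles differ in this was not tested. Psmd1 and Psmd2, the large scaffold subunits of the base, had 0.81 (SE 0.08) and 0.70 (SE 0.11), with adjusted p of 0.00011 and 0.0013 in the 6-library fit and 0.36 and 0.60 in the test of all 9.

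**Figure D3:**
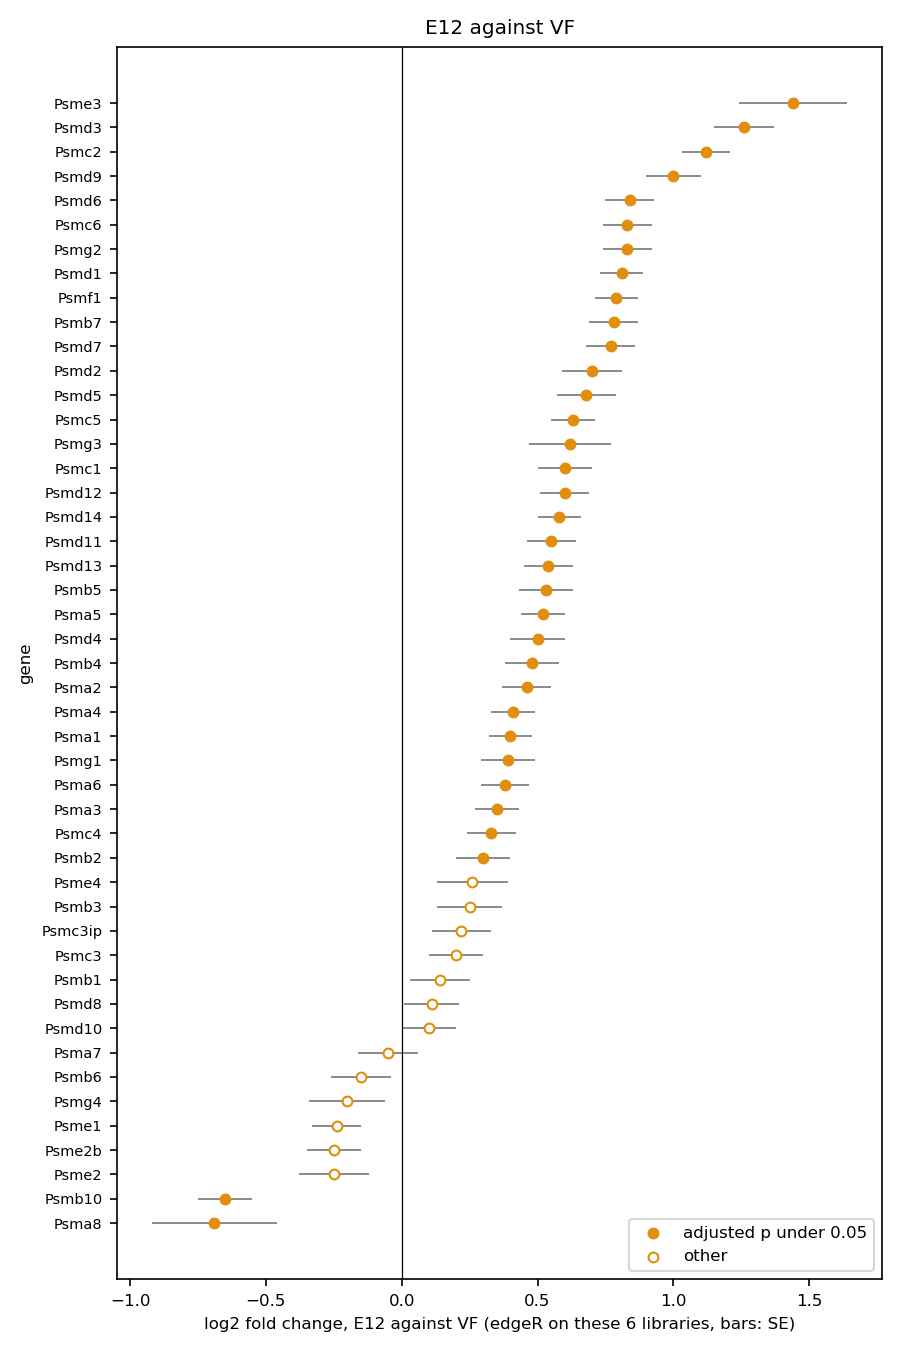
Log2 fold change of E12 against VF with its SE for each of the 47 tested proteasome genes, from the edgeR fit of these 6 libraries, filled where the adjusted p is under 0.05. In this fit 32 genes lie above 0 with a call and 2, Psmb10 and Psma8, lie below 0 with a call; in the test of all 9 libraries 0 had a call.

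Psme3 differed most between the mutants. Its level given above is 2.67 times as high in E12 as in VF, with a log2 change of 1.42 (SE 0.34, adjusted p 0.058) in the test of all 9 libraries and 1.44 (SE 0.20, adjusted p 0.00074) in the fit of 6. Psmd3, a lid subunit, had 318, 232 and 263 CPM in E12, 111, 121 and 115 in VF and 72.5, 244 and 267 in WT. The mutants are well separated, and WT 50 lies below all of them while WT 51 and WT 52 lie within the range of E12. Its log2 change of 1.23 (SE 0.43, adjusted p 0.17) became 1.26 (SE 0.11, adjusted p 8.6e-05) in the fit of 6.

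Psmc2, at 2.13 times its VF level in E12, had a log2 change of 1.09 (SE 0.29, adjusted p 0.083) in the test of all 9 libraries and 1.12 (SE 0.09, adjusted p 7e-05) in the fit of 6. Psmd9, a chaperone of the base, had 123, 97.5 and 118 CPM in E12 and 58.5, 58.5 and 56.5 in VF, with 0.96 (SE 0.30, adjusted p 0.13) and 1.0 (SE 0.10, adjusted p 0.00015). Psmb7 had 0.75 (SE 0.34, adjusted p 0.29) and 0.78 (SE 0.09, adjusted p 0.00033), and Psmf1 0.76 (SE 0.44, adjusted p 0.41) and 0.79 (SE 0.08, adjusted p 0.00015). Psmb5 was smaller, with 0.50 (SE 0.46, adjusted p 0.64) and 0.53 (SE 0.10, adjusted p 0.0030). In each of these genes every E12 library lies above every VF library.

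Not every member lay higher in E12. Psmb10 had a log2 change of -0.68 (SE 0.56, adjusted p 0.59) in the test of all 9 libraries and -0.65 (SE 0.10, adjusted p 0.00091) in the fit of 6. Psma8 had -0.72 and, in the fit of 6, -0.69 (adjusted p 0.040). Psme1 had -0.28 (SE 0.48, adjusted p 0.83) and -0.24 (SE 0.09, adjusted p 0.054), and Psme2 had -0.28 (SE 0.52, adjusted p 0.84) and -0.25 (SE 0.13, adjusted p 0.16). Psme1 and Psme2 thus missed the threshold in both fits, and with the length offset they were at -0.03 and -0.02. That offset also moved the median of all tested genes from -0.05 to 0.16, so both genes stayed below it. Psmg4, an assembly chaperone, was at -0.23 without a call. Psmb6 had -0.18 (SE 0.54, adjusted p 0.90) and Psme4 0.23 (SE 0.23, adjusted p 0.67), and Psmc3ip had 0.18 (SE 0.53, adjusted p 0.90), each without a call in either fit.

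**Figure D4:**
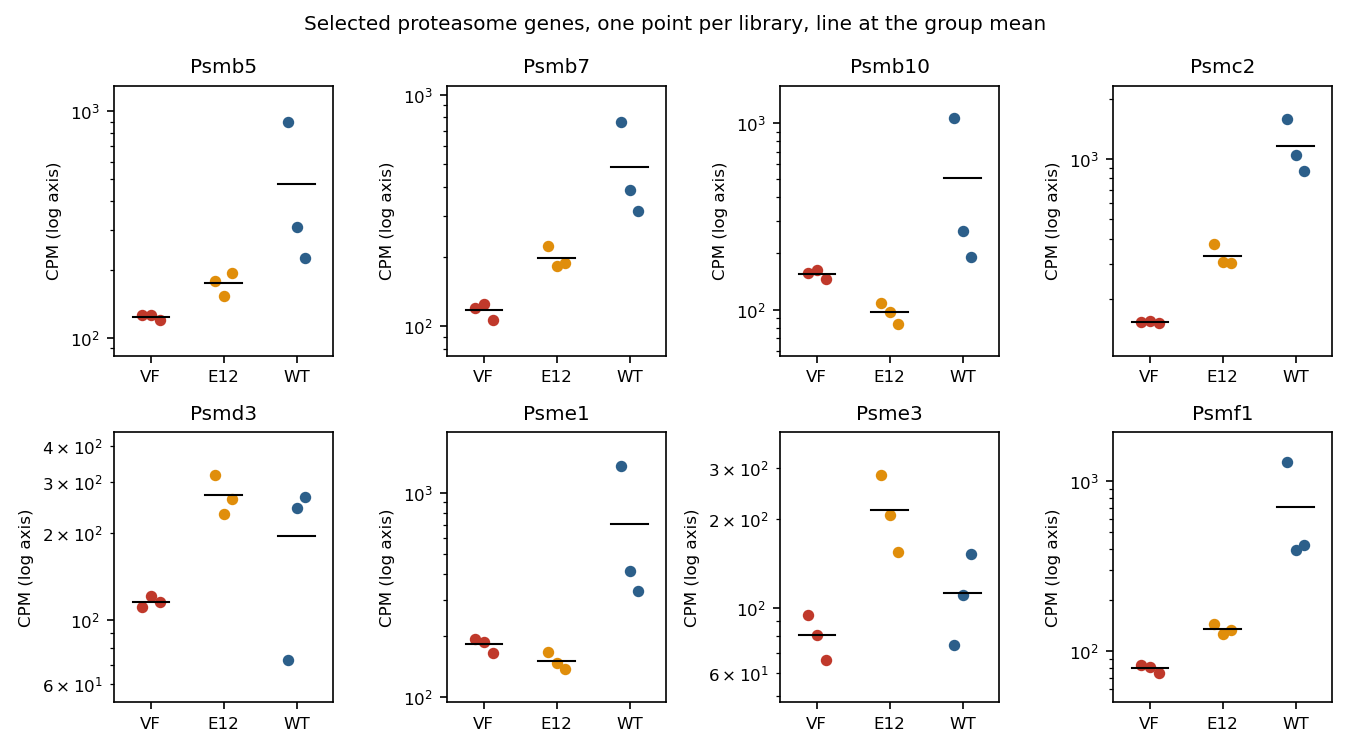
CPM (log axis) of 8 proteasome genes in each library, with a point per library and a line at the group mean. VF lies lowest for Psmb5, Psmb7, Psmc2 and Psmf1, E12 lies lowest for Psmb10, and E12 lies highest for Psme3, while 1 WT library, WT 50, lies far above the other 2 for Psmb5, Psmb10, Psme1 and Psmf1 and far below them for Psmd3.

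Psmb10 and Psmb7 occupy the same place in the core, so their balance was taken within each library, where scaling cancels. Psmb10 made up 49.9%, 49.7% and 51% of Psmb10 plus Psmb7 per kb in VF, 27.1%, 28.9% and 25.3% in E12, and 51.9%, 34.1% and 31.6% in WT. VF and E12 do not overlap, and WT 51 and WT 52 lie between them while WT 50 lies above VF. The mean share was 50.2% ± 0.69 (SD, n = 3) in VF, 27.1% ± 1.82 in E12 and 39.2% ± 11.0 in WT. E12 was 23.1 percentage points below VF (two-sided exact permutation p 0.1, adjusted 0.15 over 3 comparisons). It was 12.1 points below WT (exact p 0.1, adjusted 0.15), and VF was 11.0 points above WT (exact p 0.4, adjusted 0.4). With 3 libraries a group the smallest p this exact test can give is 0.1. Without WT 50 the difference between VF and WT became 17.3 points and that between E12 and WT -5.78.

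Genes that work with the proteasome were taken from a list of 32 symbols, 28 of which are in the table and were tested. Against WT, 4 rose and 11 fell in VF (median -0.31), against 27.7% and 20.9% of all tested genes. In E12 6 rose and 8 fell (median 0.35), against 23.9% and 18.1%. These counts changed with the length offset, which also moved the median of all tested genes. That median went from 0.36 to -0.76 in VF and from 0.36 to -0.58 in E12. With the length offset 1 rose and 20 fell in VF (median -1.43), against 12.9% and 42.2%, and 2 rose and 15 fell in E12 (median -0.84), against 9.58% and 33.1%. The maturation factor of the core, Pomp, fell in both: it had 182, 180 and 167 CPM in VF, 236, 192 and 180 in E12 and 3210, 741 and 635 in WT, with log2 fold changes of -3.11 (adjusted p 0.0036) and -2.92 (adjusted p 0.0066). Adrm1, a ubiquitin receptor of the cap, fell by 2.27 and 1.79, and Ufd1, a cofactor of the unfoldase Vcp, fell by 1.94 and 1.75. Txnl1, a thioredoxin bound to the cap, fell by 2.61 in VF and by 1.71 in E12. These 4 were also called lower with the length offset in both mutants.

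Other partners rose, though not under every setting. Zfand5, which activates the proteasome, had 181, 135 and 158 CPM in VF, 90.2, 99.0 and 116 in E12 and 15.1, 17.6 and 16.1 in WT, with log2 fold changes of 3.28 (adjusted p 9.5e-05) and 2.64 (adjusted p 0.00044). The offset for length brought these to 1.29 (adjusted p 0.00051) and 0.98 (adjusted p 0.0035). The ubiquitin shuttle Ubqln1 rose by 1.96 in VF and 2.66 in E12, and Rad23b, another shuttle, by 1.03 and 1.97. AI314180, the proteasome adaptor and scaffold, rose by 0.80 and 1.02. With the length offset, which lowered the median of all genes as given above, AI314180 turned to -1.16 (adjusted p 0.00046) and -0.64 (adjusted p 0.015). Rad23b was then at -0.71 (adjusted p 0.14) and 0.43 (adjusted p 0.40), and Ubqln1 at 0.24 (adjusted p 0.56) and 1.13 (adjusted p 0.024). The transcription factor Nfe2l1, which raises proteasome genes when the proteasome is short, was not called, with 0.33 (adjusted p 0.26) in VF and 0.43 (adjusted p 0.16) in E12, but with the length offset it was called lower, at -1.61 (adjusted p 0.00074) and -1.25 (adjusted p 0.0043). Its relative Nfe2l2 fell in VF, by 1.17 (adjusted p 0.012), and had -0.45 (adjusted p 0.25) in E12, and the offset gave -2.79 (adjusted p 3.3e-05) and -1.89 (adjusted p 0.00048). Between the mutants, Ddi2, the protease that activates Nfe2l1, was the 1 partner called, with 61.1, 53.9 and 46.7 CPM in E12 and 25.4, 22.2 and 21.0 in VF, a log2 fold change of 1.24 (adjusted p 0.050, under the threshold before rounding). In the fit of the 6 mutant libraries 14 of the 28 partners were higher in E12 and 4 lower, against 25% and 22.2% of all tested genes.

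Markers of blood lineages moved with the same groups. The summed level of 10 erythroid markers was 1210 to 1940 CPM in VF, 8390 to 22400 in E12 and 23900 to 40300 in WT, the order of the proteasome share. The 10 megakaryocyte markers went the opposite way, with 2110 to 2710 CPM in VF, 391 to 485 in E12 and 62.2 to 177 in WT, where Itgb3 was at 0. The 8 stem cell markers summed to 1260 to 1350 CPM in VF, 317 to 539 in E12 and 76.0 to 138 in WT, where Mecom, Procr and Tek were at 0. The 9 neutrophil markers summed to 7010 to 13000 CPM in VF, 1780 to 2250 in E12 and 370 to 5470 in WT. B cell markers reached 2130 CPM in 1 WT library, and T and NK cell markers 1140. These sums are not adjusted for length. Genes over 5 kb took 4.37% to 7.92% of the counts in WT and 14.2% to 16.3% in the mutants. How far this bears on the sums and on the markers at 0 in WT was not tested. In sorted bulk RNA, fewer cells of a type and less RNA per cell cannot be told apart, and the part of lineage makeup in the proteasome results was not tested.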

How the data were processed

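Per the labels' protocols, total RNA of sorted cells was extracted with PicoPure and made into libraries with SmartSeq 2, a full-length method that does not mark strand, so overlapping antisense genes cannot be told apart. The authors deposited read counts per gene, with gene symbols and a Length in bases, and expression levels on a log2 scale. Per the submitters' processing notes STAR, limma, GRCm38 and mm10 were used. The counting tool, the annotation and the step behind the log2 levels are not stated in these sources. Within a library the order of the deposited log2 levels is that of the counts (Spearman correlation 1), and their sorted values above the median differ between libraries by at most 0.017.

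Counts were tested with edgeR 4.0.16 (R 4.3.3): filterByExpr, TMM factors, 1 quasi-likelihood fit of all 9 libraries with the group as its term, two-sided, Benjamini-Hochberg over all 13608 tested genes, called under 0.05. Rows without a symbol numbered 8 and were not matched to a member. CPM were computed from the counts of tested genes after TMM scaling, and levels per kb divide by the authors' Length. The SE is the log2 fold change divided by the root of the F statistic. Genes of similar length are all other tested genes within 10% of a member's Length. The fit was also run on simulated counts drawn from 1 mean and 1 spread per gene, with changes planted at random. These lack the length trend and the wider spread of WT, so they do not show how the fit deals with either. The members, lists, named genes and alternatives were chosen with earlier results of these data known. Per-library values are given for the 3 members of lowest p in each direction, called members against the majority, and Psmb5, Psmb6, Psmb7, Psmb10, Psme1, Psme2, Psme3, Psme4, Psmf1 and Psmc3ip. Partners named are the 3 of lowest p in each direction with Pomp, Nfe2l1 and Nfe2l2. Psmb2, Psma8, Psmd1, Psmd2, Psmd3, Psmd4, Psmd5 and Psmd9 were named in addition after their values were seen.

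As alternatives, scaling used RLE or upper-quartile factors, low counts were filtered otherwise, and DESeq2 1.42.0, limma-voom and limma 3.58.1 (on the deposited levels) replaced edgeR. Further ones were fits with just the groups compared, an offset for length (loess span 0.3 per library), a replicate block, and leaving out libraries. Added after seeing the data were an offset on GENCODE transcript length, known for 98.4% of tested genes, and combinations of these settings. Shares were tested with exact permutations (SciPy 1.17.1), and figures were drawn with matplotlib 3.10.9.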

Additional observations from a re-analysis of the deposited data

How the results depend on the processing

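In the comparisons with WT, the count of members called lower in VF and in E12 stayed within 1.5 times its value in every setting run. The count called higher in VF, 0, was 1 with upper-quartile factors and 1 with at least 10 counts in every library. The count called higher in E12, 2, was 0 with RLE factors, with any count, with 2 groups alone and with every length offset, was 4 on the deposited levels, and ran from 0 to 4 with a library left out (0 without VF 1, VF 2, E12 1, E12 2 or WT 51, 1 without VF 3, E12 5 or WT 50, 4 without WT 52). On the deposited levels 23 members in VF and 17 in E12 lay below the median of genes of similar length, in place of 46 and 39. The cause was not tested. Psme4 turned in sign against WT under the offsets: in VF to -1.46 with the authors' Length, -1.44 with GENCODE length, both also with 2 groups alone, and -1.43 without WT 50 and E12 5, and in E12 to -0.91, -0.93 and -0.74.

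Most dependent was E12 against VF. Members called higher, 0 in the test of all 9 libraries, were 1 with RLE factors, 1 with at least 10 counts, 8 by DESeq2, 2 by limma-voom, 7 on the deposited levels, 32 with 2 groups alone (30, 31 or 32 with a library left out), 16 with the length offset and 15 with the GENCODE offset, 36 with either offset and 2 groups, 16 without WT 50 and E12 5, 35 so with the length offset, and 0 to 18 with a library left out. Members called lower were 1 on the deposited levels, 2 with 2 groups alone (1 to 2 with a library left out), 1 with either offset and 2 groups, and 0 to 1 with a library left out. Psmb6 turned from -0.18 to 0.06 with the length offset, 0.02 with the GENCODE offset and 0.16 with the length offset without WT 50 and E12 5, where Psme1 turned to 0.12 and Psme2 to 0.20. In these fits the median of all tested genes was 0.16, 0.16 and 0.21, against -0.05 in the test of all 9 libraries. For single genes and medians, 791 recomputed values kept their direction and, where there was a test, their side of the threshold. Of the rest, 88 came to pass it, 56 no longer did, 22 without a test moved and 17 changed sign.

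VF and E12 share the replicate numbers 1 and 2, but the labels name no shared origin. Their deviations correlated at 0.0305 and 0.119 for equal numbers, and at 0.14 and -0.0029 for crossed ones. These few correlations cannot show whether libraries of equal number share an origin. A fit with a replicate block on these numbers left out VF 3 and E12 5. In it 0 members were called higher and 0 lower, as were 0 of all tested genes, so it says nothing particular about the members.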
